A study of Bos taurus with 12 samples.

Results

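WNT ligands and the secreted proteins that modulate them were followed in bovine oviductal epithelial cells as a set of 10 genes chosen by name, the ligands WNT2B, WNT4, WNT5A, WNT5B, WNT7A and WNT11 and the modulators SFRP1, SFRP2, DKK1 and RSPO3. Of these, 9 were read on the arrays, among 18010 genes with a single symbol, and WNT4 was not analysed here. The samples came from 6 normally cycling Angus heifers, and the ampulla (the upper segment of the oviduct, toward the ovary) and the isthmus (the lower segment, toward the uterus) of each heifer gave 1 array each. For the follicular phase (FP, high estradiol), 3 heifers were given prostaglandin F2α (25 mg, day 6 of the cycle) and were killed after 36 h. For the luteal phase (LP, high progesterone), the other 3 heifers were killed on day 11 or 12 without that treatment. The groups were therefore FP ampulla, LP ampulla, FP isthmus and LP isthmus, with 3 arrays each. The phases came from different heifers and the segments from the same heifers, and the FP of these animals was an induced one. The main fit did not pair the segments of a heifer. Cells were squeezed out of small sections of the oviduct on the side of the follicle or corpus luteum and were not sorted.

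Values are log2 signals after the authors' normalization, on which a difference of 1 is a 2-fold change. A gene was called differentially expressed at an adjusted p under 0.05 (limma, over all 26773 probesets) and a change of at least 1.5-fold. The lower quartile of the arrays lay between 5.68 and 5.82, and signals around or below this level may be background. The list of 7 epithelial markers averaged 10.04 to 10.69 per array and that of 6 ciliated cell markers 10.52 to 11.22, with none under the lower quartile in any group. Stromal markers (12 genes) averaged 6.72 to 7.30 in the ampulla, 7.65 to 8.56 in the FP isthmus and 7.01 to 8.53 in the LP isthmus. Of the stromal list only PDGFRA in the FP ampulla and PDGFRB in the LP isthmus lay under the lower quartile. The 9 leukocyte markers averaged 6.56 to 7.002 in the FP and 7.13 to 8.41 in the LP, with LP heifer 3 the highest in both segments. In the LP, the deviations of the ampulla and the isthmus from their group means correlated over probesets within the same heifer (r = 0.26, 0.22 and 0.37) and not across heifers (-0.22 to -0.05). In the FP the same heifer gave -0.05, -0.17 and -0.10, whereas ampulla 1 with isthmus 2, ampulla 2 with isthmus 3 and ampulla 3 with isthmus 1 gave 0.24, 0.24 and 0.16. The labelled pairing therefore did not show in the FP, and whether its numbers are correct was not tested. The values below do not use the heifer number unless a block by heifer is named or a heifer is left out with both of its arrays. In the FP, leaving out a heifer by its number may therefore remove arrays of different animals.

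WNT proteins are lipid-modified signals that act over short distances by binding Frizzled receptors. With the co-receptors LRP5 and LRP6 they stabilize β-catenin, which enters the nucleus and acts with TCF and LEF factors, and with ROR1, ROR2 and other receptors they steer cell shape and polarity without β-catenin. SFRP proteins bind WNT ligands outside the cell, DKK1 blocks LRP5 and LRP6, and R-spondins such as RSPO3 bind LGR receptors and protect Frizzled receptors from the ubiquitin ligases RNF43 and ZNRF3. In the mouse, WNT4, WNT5A and WNT7A are known for their part in forming the female reproductive tract.

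Among the 9 genes, 4 were called in at least 1 of the 4 pairwise comparisons (WNT2B, WNT5A, WNT5B and SFRP2) and 5 in none, and 6 of the 36 pairwise tests were called. Of all probesets, 7.82% were called between the phases in the ampulla and 8.44% in the isthmus. Between the segments, 6.99% were called in the LP and 2.35% in the FP. The share of probesets called in at least 1 comparison was not computed. WNT5A was high in the LP isthmus alone, WNT2B and WNT5B were higher in the ampulla than in the isthmus during the LP, and SFRP2 was higher in the isthmus than in the ampulla in both phases. WNT7A, WNT11 and SFRP1 were called in no comparison, and DKK1 and RSPO3 stayed under the lower quartile of the arrays in every group.

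**Figure D1:**
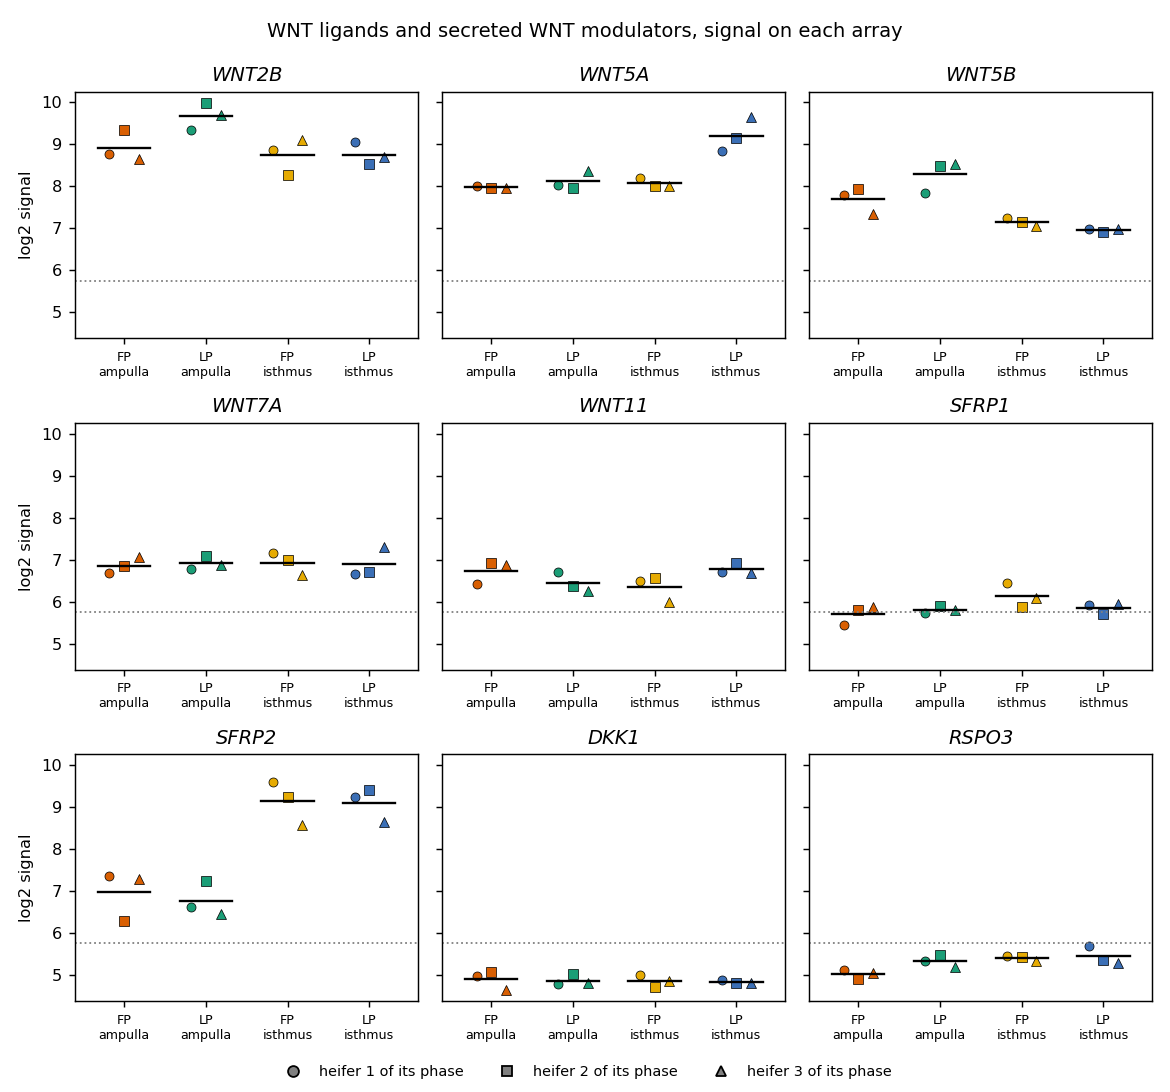
Log2 signal (vertical axis, the same range in every panel) of the 9 measured genes on each of the 12 arrays, by group on the horizontal axis, with the shape of a point giving the heifer of its phase, a bar for the group mean and a dotted line for the mean lower quartile of the arrays (5.76). The 3 LP isthmus points of WNT5A (8.84 to 9.64) lie above its other 9 points, the 6 isthmus points of SFRP2 (8.56 to 9.59) lie above its 6 ampulla points, and DKK1 and RSPO3 lie under the dotted line.

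WNT5A, a ligand known mainly for signalling without β-catenin, was lower in the FP than in the LP within epithelial cells of the isthmus. Its signal in the LP isthmus was 8.84, 9.15 and 9.64 in heifers 1 to 3, a mean of 9.21 ± 0.41 (SD, n = 3). In the FP isthmus it was 8.20, 8.02 and 8.01 (8.08 ± 0.10). The phases did not overlap, and each FP isthmus value lay within the range of the ampulla (7.95 to 8.38). The difference of the FP minus the LP was -1.14 (SE 0.18, adjusted p = 0.00223), a 2.20-fold lower signal in the FP. The call held in each of 14 alternative analyses, where the difference ranged from -1.32 to -0.92 with an adjusted p up to 0.0216.

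In the ampulla, WNT5A was 8.01, 7.96 and 7.97 in the FP (7.98 ± 0.02) and 8.02, 7.95 and 8.38 in the LP (8.12 ± 0.23). These values overlapped, and the difference of -0.14 (95% interval -0.54 to 0.26, adjusted p = 0.677) did not pass the test. Whether the phase difference was itself unequal between the segments was tested as an interaction, the isthmus difference minus the ampulla difference, which was -0.996 (95% interval -1.56 to -0.43). Its unadjusted p was 0.0026, and over all probesets its adjusted p was 0.213, so the interaction did not pass. Between the segments in the LP, WNT5A was 1.09 higher in the isthmus (SE 0.18, adjusted p = 0.00324), a 2.13-fold difference that rests on the same 3 LP isthmus arrays as the phase difference. That call held in 15 of 15 alternatives, with an adjusted p up to 0.0426. In the FP the segments differed by 0.10 (95% interval -0.30 to 0.50, adjusted p = 0.837).

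The smooth muscle marker MYH11 had a like pattern on the same arrays, at 7.78, 7.59 and 7.59 in the LP isthmus and 5.74 to 6.83 on the other arrays. MYH11 was 1.01 lower in the isthmus of the FP (adjusted p = 0.00221) and 1.36 higher in the isthmus than in the ampulla in the LP (adjusted p = 4.95e-04). MYH11 was the only smooth muscle marker of 7 to be called in either comparison. Between the phases in the isthmus, DES (0.26) and LMOD1 (0.22) had the opposite sign and the rest that of MYH11, with a list median of -0.07. Between the segments of the LP, DES (-0.09) and SYNM (-0.15) had the opposite sign and the rest that of MYH11. Of the 12 stromal markers, FBLN1 alone was called lower in the isthmus of the FP (-1.07, adjusted p = 0.013). PDGFRA (-0.34) had the same sign, and the rest had differences above 0, with a list median of 0.31. The mean of the 7 smooth muscle markers was 6.64 to 6.76 in the LP isthmus, 6.39 to 6.68 in the FP isthmus and 6.18 to 6.46 in the ampulla. ACTG2 lay under the lower quartile in every group. The stromal mean of LP isthmus heifer 3, which had the highest WNT5A signal (9.64), was 7.01 and lay within the range of the ampulla. Of the 9 leukocyte markers, CSF1R was called lower in the isthmus of the FP (-0.79, adjusted p = 0.024). CD68 (0.08) and CD14 (0.04) had the opposite sign, and the rest were lower but not called. Of these, CD3D (-1.66), CD3E (-1.55), PTPRC (-1.15) and CD2 (-0.98) did not overlap between the phases, with adjusted p of 0.0917 to 0.112. CD79A (-0.24) and MS4A1 (-0.06) did overlap. In both segments LP heifer 3 had the highest WNT5A signal and the highest leukocyte mean (8.07 in the isthmus and 8.41 in the ampulla). The leukocyte means of LP heifers 1 and 2 were 7.36 and 7.13 in the isthmus and 7.58 and 7.42 in the ampulla. The part of smooth muscle, stromal cells or leukocytes in the WNT5A difference was not tested. On bulk RNA fewer cells of a type and less RNA per cell cannot be told apart.

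WNT5B, a close relative of WNT5A, was highest in the LP ampulla and lowest in the LP isthmus. It was 7.85, 8.49 and 8.53 in the LP ampulla (8.29 ± 0.38, SD, n = 3) and 7.80, 7.95 and 7.35 in the FP ampulla (7.70 ± 0.31). In the isthmus it was 7.24, 7.16 and 7.07 in the FP (7.16 ± 0.09) and 6.98, 6.91 and 6.99 in the LP (6.96 ± 0.04). Every ampulla value lay above every isthmus value. In the LP the isthmus minus the ampulla was -1.33 (SE 0.19, adjusted p = 0.00144), a 2.51-fold difference that held in 15 of 15 alternatives with an adjusted p up to 0.0286. In the FP the difference was -0.55 (95% interval -0.96 to -0.13, adjusted p = 0.161) and did not pass, although the segments did not overlap.

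Between the phases, WNT5B differed by -0.59 in the ampulla (SE 0.19, 95% interval -1.01 to -0.17, adjusted p = 0.0582), where FP heifer 2 (7.95) lay above LP heifer 1 (7.85). It was called there without LP heifer 1 (-0.81, adjusted p = 0.019) and where dim probesets were left out (adjusted p = 0.042). In the isthmus the difference was 0.19 (95% interval -0.22 to 0.61, adjusted p = 0.555), with the FP values all above the LP values. The interaction was 0.78 (95% interval 0.19 to 1.37, unadjusted p = 0.0143, adjusted p = 0.356) and did not pass.

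WNT2B, a ligand that signals through β-catenin, was likewise highest in the LP ampulla, at 9.34, 9.98 and 9.69 (9.67 ± 0.32, SD, n = 3). The FP ampulla had 8.77, 9.36 and 8.65 (8.93 ± 0.38), the FP isthmus 8.86, 8.28 and 9.10 (8.75 ± 0.42) and the LP isthmus 9.05, 8.53 and 8.70 (8.76 ± 0.27). The last 3 groups overlapped with each other, and the lowest LP ampulla value lay below the highest FP ampulla value (9.36). In the LP the isthmus minus the ampulla was -0.91 (SE 0.26, adjusted p = 0.0421), a 1.88-fold difference with no overlap. This call was near the threshold and ended in 6 of 15 alternatives, among them without FP heifer 1 (-0.91, adjusted p = 0.0746), without LP heifer 2 (-0.64, adjusted p = 0.298), without LP heifer 3 (-0.87, adjusted p = 0.196) and with heifer as a fixed block (-0.91, adjusted p = 0.133).

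The phase difference of WNT2B in the ampulla was -0.75 (95% interval -1.31 to -0.18, adjusted p = 0.0735) and passed only without FP heifer 2 (-0.96, adjusted p = 0.0283) among 14 alternatives. In the isthmus the difference was -0.01 (95% interval -0.58 to 0.56, adjusted p = 0.986), and the interaction of 0.74 (95% interval -0.07 to 1.54) had an adjusted p of 0.559. Some markers of other cell types also differed between the segments in the LP, where WNT2B and WNT5B were called. Of 7 endothelial markers, KDR and EMCN were called lower in the isthmus than in the ampulla, with differences of -2.38 (adjusted p = 0.0244) and -2.41 (adjusted p = 0.0113). PECAM1 (-0.24) and TEK (-0.29) were not called, nor were VWF (0.07), CDH5 (0.13) and CLDN5 (0.11), whose differences had the opposite sign. The mean of the endothelial list was 7.35 to 7.97 in the LP ampulla and 6.71 to 7.46 in the LP isthmus. Of 4 mesothelial markers, MSLN (-1.60, adjusted p = 0.0226) and UPK3B (-1.17, adjusted p = 0.0226) were called lower in the isthmus of the LP, LRRN4 (0.23) and CALB2 (0.12) were not, and CALB2 lay under the lower quartile in every group. The mean of the mesothelial list was 7.88 to 7.89 in the LP ampulla and 6.75 to 8.09 in the LP isthmus. Of 6 ciliated cell markers RSPH1 was called lower there (-0.64, adjusted p = 0.00219). The other 5 were also lower, by -0.46 to -0.38, and were not called. Of these, FOXJ1 (adjusted p = 0.0099), CCDC39 (adjusted p = 0.0202) and TEKT1 (adjusted p = 0.0419) missed only the fold minimum. The part of endothelial, mesothelial or ciliated cells in the WNT2B and WNT5B differences was not tested.

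WNT7A and WNT11 were called in no comparison. WNT7A, which in the mouse helps to pattern the ducts that become the oviduct and uterus, had group means of 6.86, 6.91, 6.92 and 6.90 for FP ampulla, LP ampulla, FP isthmus and LP isthmus, all overlapping. Its phase difference was -0.06 in the ampulla (95% interval -0.48 to 0.37) and 0.03 in the isthmus (-0.39 to 0.45). WNT11, a ligand of the β-catenin independent kind, was 6.49, 6.56 and 5.99 in the FP isthmus and 6.70, 6.93 and 6.69 in the LP isthmus, with no overlap. Its difference of -0.43 there (95% interval -0.84 to -0.01, adjusted p = 0.154) did not pass. In the ampulla WNT11 was 6.41, 6.92 and 6.87 in the FP and 6.70, 6.37 and 6.26 in the LP, a difference of 0.29 (95% interval -0.12 to 0.70, adjusted p = 0.348). Its interaction of -0.72 had an unadjusted p of 0.021 and an adjusted p of 0.408.

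SFRP2, a secreted Frizzled-related protein that binds WNT ligands, differed between the segments and not detectably between the phases. In the isthmus it was 9.59, 9.25 and 8.56 in the FP (9.13 ± 0.52, SD, n = 3) and 9.23, 9.39 and 8.63 in the LP (9.08 ± 0.40). In the ampulla it was 7.37, 6.28 and 7.29 in the FP (6.98 ± 0.61) and 6.62, 7.24 and 6.45 in the LP (6.77 ± 0.42). The lowest isthmus array (8.56) lay above the highest ampulla array (7.37), so that any matching of the FP heifers gives the same direction. The isthmus was 2.31 higher in the LP (SE 0.36, adjusted p = 0.00219), a 4.97-fold difference that held in 15 of 15 alternatives with an adjusted p up to 0.028. In the FP it was 2.16 higher (SE 0.36, adjusted p = 0.0104), a 4.46-fold difference whose call ended without FP heifer 1 (2.12, adjusted p = 0.05) or FP heifer 2 (1.75, adjusted p = 0.127). The phase differences of 0.21 in the ampulla (95% interval -0.58 to 0.99) and 0.05 in the isthmus (95% interval -0.74 to 0.83) did not pass, with adjusted p of 0.769 and 0.951.

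Some stromal markers were also higher in the isthmus. The proteoglycan LUM was 5.82 to 7.29 in the ampulla, 9.89 to 11.94 in the isthmus of the FP and 11.86, 11.82 and 7.12 in the isthmus of the LP. Of the 12 stromal markers, 3 were called higher in the isthmus in the LP (LUM by 3.78, FBLN1 by 2.50 and PDGFRA by 0.65) and 2 in the FP (DCN by 3.16 and FBLN1 by 1.41). In the LP, 4 of the 12 had a difference below 0 and were not called (COL1A1 -0.03, COL1A2 -0.09, PDGFRB -0.12 and THY1 -0.76). In LP isthmus heifer 3 the stromal mean was 7.01, inside the ampulla range of 6.72 to 7.30, with LUM at 7.12 and DCN at 8.16 but FBLN1 at 10.85. SFRP2 on that array was 8.63, above each ampulla array. The part of stromal cells in the SFRP2 difference was not tested.

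**Figure D2:**
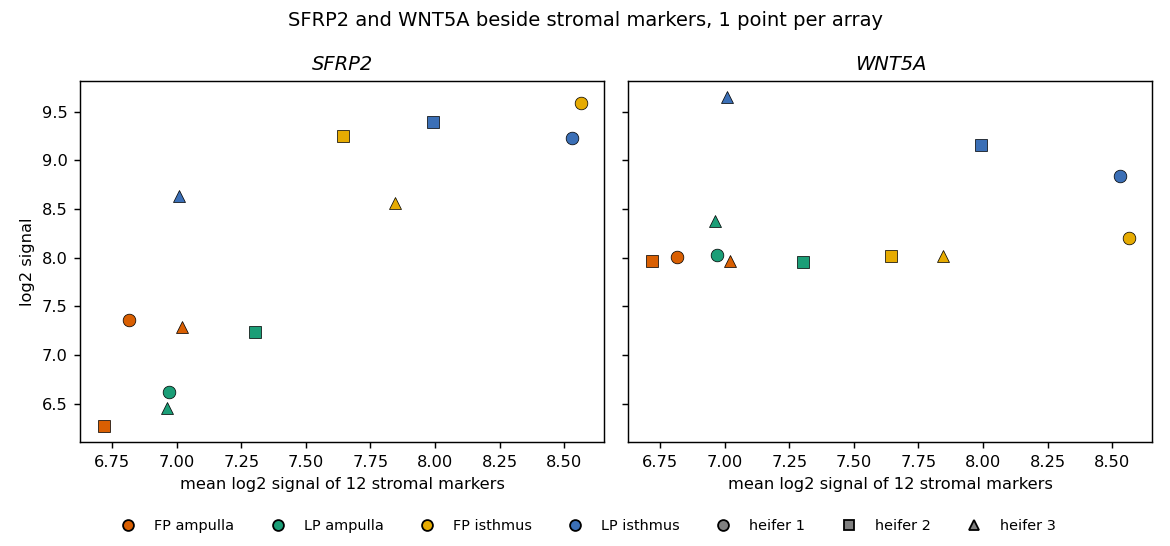
Log2 signal of SFRP2 and of WNT5A (vertical axis) against the mean log2 signal of 12 stromal markers (horizontal axis), 1 point per array, coloured by group and shaped by heifer. LP isthmus heifer 3 (triangle at 7.01 on the horizontal axis) has the stromal mean of an ampulla array, with SFRP2 at 8.63 and WNT5A at 9.64.

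The other modulators were close to the lower quartile of the arrays or below it. SFRP1, a relative of SFRP2, had group means of 5.71 and 5.81 in the FP and LP ampulla and 6.14 and 5.86 in the FP and LP isthmus. Its largest difference was 0.43 between the segments in the FP (95% interval 0.08 to 0.77, adjusted p = 0.18), which did not pass. DKK1, the inhibitor of LRP5 and LRP6, had group means of 4.84 to 4.90, and no 95% interval of its pairwise differences reached beyond -0.31 or 0.30. At such signals a difference cannot be told from background.

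RSPO3, which strengthens WNT signalling through LGR receptors, had group means of 5.02 and 5.34 in the FP and LP ampulla and 5.41 and 5.45 in the FP and LP isthmus. The phases did not overlap in the ampulla, where the difference was -0.32 (SE 0.12, adjusted p = 0.0945). A further RSPO3 probeset of lower signal gave 0.19 there (adjusted p = 0.364), in the opposite direction, and the mean of both gave -0.06. Neither was called in any comparison.

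**Figure D3:**
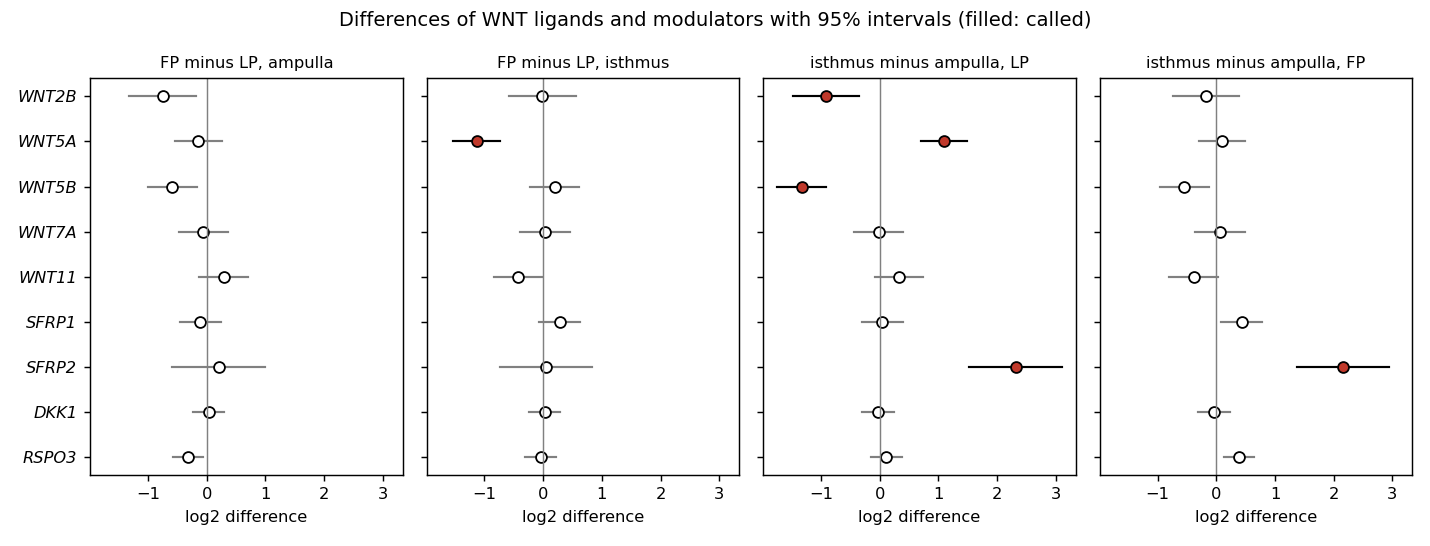
Differences in log2 signal (horizontal axis) of the 9 genes in the 4 pairwise comparisons, with 95% intervals from the fit and filled points for the calls. Of the 36 intervals, the 6 with filled points are those of WNT5A (-1.14) within the isthmus, WNT2B (-0.91), WNT5A (1.09), WNT5B (-1.33) and SFRP2 (2.31) between the segments in the LP, and SFRP2 (2.16) in the FP.

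The counts stand beside those of all probesets. In the ampulla, 0 of the 9 genes were called between the phases (3 at an unadjusted p under 0.05), while 7.82% of all probesets were called, 4.44% higher and 3.38% lower in the FP. The phases did not overlap in the ampulla for 1 of the 9 genes and for 35.5% of all probesets (16.6% higher and 18.9% lower). In the isthmus 1 of 9 was called, lower, beside 8.44% of all probesets (4.4% higher and 4.04% lower), and the phases did not overlap for 3 of 9 and for 34.2% (16.5% higher and 17.7% lower). Both shares in the isthmus were near those of all probesets. In the LP, 4 of 9 were called between the segments, 2 higher and 2 lower in the isthmus, beside 6.99% of all probesets (3.92% higher and 3.07% lower). The segments of the LP did not overlap for these 4 genes and for 29.5% of all probesets (14.2% higher and 15.3% lower). In the FP, 1 of 9 was called, beside 2.35% (1.52% higher and 0.829% lower), and the segments did not overlap for 4 of 9 and for 25% (11.9% higher and 13.1% lower). For the interaction 0 of 9 were called (3 at an unadjusted p under 0.05), beside 0.153% of all probesets (0.0149% higher and 0.138% lower).

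The rest of the pathway was read on 94 genes in lists by role, of which 90 were measured. Some genes stood in more than 1 list and were counted once among the 90. Between the phases, the ampulla had 1 higher and 5 lower calls among the 90 genes (6.67% called, near the 7.82% of all probesets), and the isthmus 1 higher and 13 lower (15.6%, beside 8.44%). Between the segments, 13 were called higher and 3 lower in the isthmus of the LP (17.8%, beside 6.99%), and 4 higher and 0 lower in that of the FP (4.44%, beside 2.35%). The lower calls of the isthmus and the higher calls of the LP share the 3 LP isthmus arrays. None of the 13 WNT ligands outside the set was called in any comparison. The closest was WNT10B in the ampulla (-0.32, SE 0.09, adjusted p = 0.0327), a 1.25-fold difference under the minimum. The set and the lists were chosen with earlier results of these data known, so their shares of calls are given as a description. The part of stromal cells, smooth muscle or other cell types in the differences of these pathway genes was not tested either.

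Among 15 other secreted modulators, norrin (NDP), which is no WNT protein but binds FZD4 with LRP5, was 8.63, 9.22 and 8.62 in the LP isthmus and 6.12, 6.85 and 6.50 in the FP isthmus. On the 6 ampulla arrays NDP was 5.92 to 6.32, so that the LP isthmus stood apart from the other 3 groups, like WNT5A. NDP was 2.34 lower in the FP isthmus (the FP minus the LP was -2.34, SE 0.19, adjusted p = 8.95e-05), a 5.05-fold difference, and 2.58 higher in the isthmus than in the ampulla of the LP (adjusted p = 3.51e-05). Both calls held in every alternative run (13 and 14). Its interaction was -2.11 (SE 0.27, adjusted p = 0.021) and was the only interaction called among the 90 genes. That call ended without FP heifer 1, 2 or 3, without LP heifer 2 or 3 and with heifer as a fixed block, with an adjusted p up to 0.152.

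WIF1, which binds WNT ligands, was 2.00 higher in the isthmus of the LP (SE 0.38, adjusted p = 0.00665) and was not called without LP heifer 2 or 3 (adjusted p up to 0.0605). DKKL1, a relative of the DKK inhibitors, was the 1 gene of the 90 called higher in the FP ampulla (0.74, SE 0.18, adjusted p = 0.0193). The DKKL1 call was lost without FP heifer 2, LP heifer 1 or LP heifer 3, or with only the compared groups in the fit (adjusted p up to 0.0746). WLS, the carrier that takes WNT ligands to the cell surface, was 11.50, 11.34 and 10.81 in the FP isthmus and 11.98, 12.21 and 11.87 in the LP isthmus. Its difference was -0.80 (SE 0.17, adjusted p = 0.00864) and kept its call in 13 of 13 alternatives, while PORCN, which adds the lipid to WNT ligands, had -0.23 (adjusted p = 0.21).

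Of 22 measured receptors and co-receptors, 5 were called lower and 1 higher in the isthmus of the FP (27.3%, beside 8.44% of all probesets). The ubiquitin ligases ZNRF3 (-1.02, SE 0.11, adjusted p = 3.02e-04) and RNF43 (-1.01, SE 0.22, adjusted p = 0.0106) fell and held in 13 of 13 alternatives. The co-receptor LRP5 fell by 0.61 (SE 0.09, adjusted p = 0.00125), a change near the fold minimum. It lay under that minimum without FP heifer 1 (-0.54) and with the arrays centred on their median. FZD10 and FZD5 were the other lower calls. FZD10 was lost without LP heifer 1 or 2 or with only the compared groups in the fit (adjusted p up to 0.0603). FZD5 was lost without FP heifer 2 or 3 (adjusted p up to 0.0792). ROR2, a receptor of WNT5A, was the higher call (0.87, SE 0.21, adjusted p = 0.0178). The ROR2 call was lost without FP heifer 1, 2 or 3 or LP heifer 2 or 3, or with only the compared groups in the fit (adjusted p up to 0.0844). In the ampulla 2 of the 22 were called (9.09%, near the 7.82% of all probesets). FZD7 (-0.93, SE 0.21, adjusted p = 0.0142) and FZD4 (-0.62, SE 0.16, adjusted p = 0.0242) were called lower. FZD7 was lost without FP heifer 1 or 3 or LP heifer 1 or 2, or with only the compared groups in the fit (adjusted p up to 0.0736). FZD4 was lost without FP heifer 1, 2 or 3 or LP heifer 3 (adjusted p up to 0.113). The FZD4 call was also lost with median centring and with the repeated quantile normalization.

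Between the segments, the R-spondin receptor LGR5 was 12.70, 12.71 and 12.22 in the FP isthmus and 13.06, 13.28 and 13.00 in the LP isthmus. The ampulla had 9.66, 7.56 and 8.60 in the FP and 8.75, 10.63 and 10.48 in the LP, a wide spread among heifers. LGR5 was higher in the isthmus by 3.16 in the LP (SE 0.54, adjusted p = 0.00397) and by 3.94 in the FP (SE 0.54, adjusted p = 0.004), and the FP call was lost without FP heifer 2 (3.33, adjusted p = 0.0632). LGR4 was called in the FP alone (0.74, adjusted p = 0.0063), at a difference of 0.45 in the LP (adjusted p = 0.0249) that was under the fold minimum. The LGR4 call was lost without FP heifer 2 (adjusted p up to 0.121). ROR1, another receptor of WNT5A, ran the opposite way in the LP, at 7.35, 6.18 and 6.86 in the isthmus and 8.55, 9.06 and 8.93 in the ampulla (-2.05, SE 0.26, adjusted p = 7.92e-04).

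Genes that canonical WNT signalling is known to induce in many tissues were read as a list of 13. RNF43, ZNRF3 and LGR5 were also counted among the receptors, and TCF7 and LEF1 among the transducers, so the shares of these lists overlap. In the FP, 0 of the 13 were called higher and 5 lower in the isthmus (38.5%, beside 8.44% of all probesets). In the ampulla 0 were called higher and 2 lower (15.4%, beside 7.82%). The median log2 difference was -0.57 in the isthmus and -0.33 in the ampulla, beside -0.01 and -0.03 over all probesets. NKD1, a feedback inhibitor that binds Dishevelled, was 9.13, 9.18 and 8.94 in the LP isthmus and 7.25, 7.01 and 7.16 in the FP isthmus. In the ampulla NKD1 was 7.18, 7.45 and 7.82 in the LP and 6.79, 6.56 and 6.73 in the FP. The phases did not overlap in either segment, and NKD1 fell by 1.94 in the isthmus (SE 0.15, adjusted p = 6.55e-05) and by 0.79 in the ampulla (SE 0.15, adjusted p = 0.00573), in every alternative run. Its interaction of -1.15 did not pass (adjusted p = 0.0816). APCDD1, an inhibitor at the cell membrane, had the opposite sign. It was 8.75 to 8.96 in the FP and 8.27 to 8.59 in the LP ampulla (0.48, SE 0.10, adjusted p = 0.00819), and 8.52 to 8.59 in the FP and 8.14 to 8.27 in the LP isthmus (0.34, SE 0.10, adjusted p = 0.0379). The phases did not overlap in either segment, and APCDD1 was not called because its folds of 1.40 and 1.26 were under the minimum.

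TCF7, a nuclear partner of β-catenin, was 8.56, 9.08 and 9.40 in the LP isthmus and 7.97, 7.91 and 7.54 in the FP isthmus, and fell by 1.21 (SE 0.24, adjusted p = 0.00732). TCF7 is also a T cell gene, and LP isthmus heifer 3, with the highest TCF7, had the highest leukocyte mean of the isthmus (8.07, against 6.66 to 7.36 on the other 5 isthmus arrays). The part of leukocytes in the TCF7 difference was not tested. The cell cycle gene CCND1 fell by 1.10 in the isthmus (SE 0.30, adjusted p = 0.0277) and was called 2.00-fold lower in the ampulla (SE 0.30, adjusted p = 0.0424). The isthmus call was lost without FP heifer 1 or 2 or LP heifer 1 or 3 (adjusted p up to 0.111), and the ampulla call without any 1 of the 6 heifers (adjusted p up to 0.15). Both CCND1 calls were also lost with only the compared groups in the fit. The most used marker of the pathway, AXIN2, was not called, with differences of -0.28 in the isthmus (SE 0.12, adjusted p = 0.165) and -0.12 in the ampulla (SE 0.12, adjusted p = 0.602). LEF1 had -0.85 in the isthmus (SE 0.34, adjusted p = 0.117).

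In the LP, 5 of the 13 were called higher in the isthmus (NKD1 by 1.60, RNF43 by 1.59, ZNRF3 by 0.64, LGR5 by 3.16 and TCF7 by 1.44), and MYC was called lower (-0.96, SE 0.15, adjusted p = 0.00281), 46.2% of the list beside 6.99% of all probesets. Without LP heifer 2 the calls of ZNRF3 (adjusted p = 0.053) and TCF7 (adjusted p = 0.055) were lost. In the FP only LGR5 of this list was called. Among 20 measured transducers, 0 were called higher and 3 lower in the isthmus of the FP (15%, beside 8.44% of all probesets). Between the segments, 3 were called higher in the isthmus of the LP (15%, beside 6.99%) and 1 in that of the FP (5%, beside 2.35%). APC, a scaffold of the complex that degrades β-catenin, was 12.27, 12.15 and 12.26 in the LP isthmus and 11.57, 11.53 and 11.51 in the FP isthmus. APC fell by 0.69 in the isthmus (SE 0.10, adjusted p = 0.00139). TCF7L1 was 1.52 higher in the isthmus of the LP (adjusted p = 0.001), in every alternative run. In the FP it was 1.03 higher in the isthmus (adjusted p = 0.0225), a call lost in 3 of 14 alternatives. Between the phases TCF7L1 differed by -0.68 in the isthmus (adjusted p = 0.0426), a call lost in 7 of 13. β-catenin itself (CTNNB1) differed by -0.15 in the isthmus (95% interval -0.30 to 0.01, adjusted p = 0.195) and -0.14 in the ampulla (-0.30 to 0.02, adjusted p = 0.215).

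**Figure D4:**
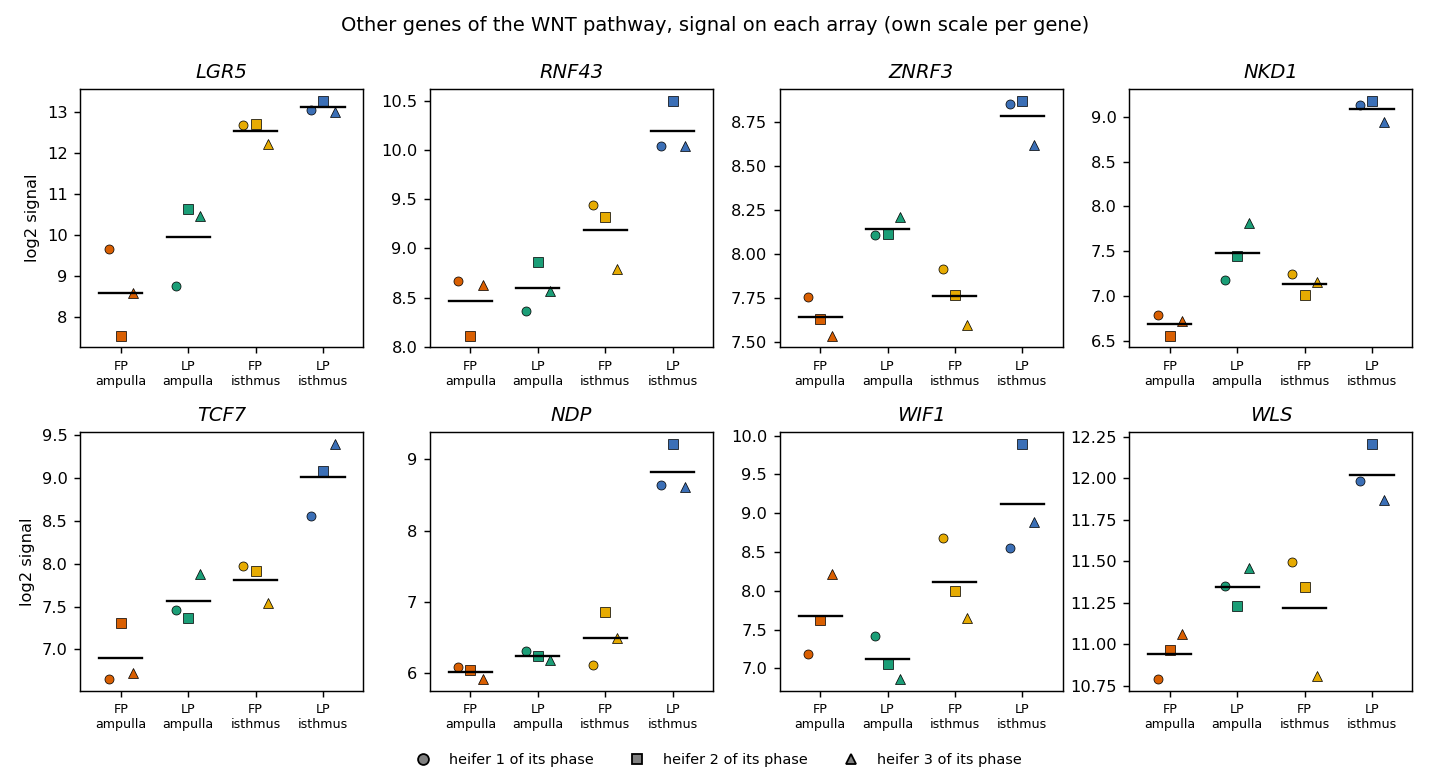
Log2 signal (vertical axis, a range of its own in each panel) of 8 other genes of the WNT pathway on each array, by group, with bars for the group means and shapes for the heifers. The 8 genes were chosen with their values known and do not stand for the pathway. Not shown are AXIN2, which was not called, and APCDD1, whose phase differences had the opposite sign. MYC and ROR1, called lower in the isthmus of the LP, are not shown either. In the panels of RNF43, ZNRF3, NKD1, TCF7, NDP and WLS the 3 LP isthmus points lie above the other 9 points (NKD1 8.94 to 9.18 against at most 7.82), and in that of LGR5 all 6 isthmus points lie above all 6 ampulla points.

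Planar cell polarity genes, which order cells within the plane of an epithelium and act with the β-catenin independent ligands, gave 1 call among 10 measured in each of 3 comparisons. That share of 10% is near those of all probesets (7.82% in the ampulla, 8.44% in the isthmus and 6.99% between the segments of the LP). CELSR2 was called lower in the ampulla of the FP (-0.66, SE 0.12, adjusted p = 0.00451), a call whose fold fell under the minimum without FP heifer 3 (-0.58). DAAM2 was called lower in the isthmus of the FP (-1.14, SE 0.25, adjusted p = 0.011). That call ended without FP heifer 3 and with only the compared groups in the fit (adjusted p up to 0.0654). DAAM2 was 2.04 higher in the isthmus than in the ampulla of the LP (SE 0.25, adjusted p = 6.08e-04), where its ampulla mean of 5.14 lay under the lower quartile.

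The genes whose patterns lay closest to each called gene were found among 18009 others, by the root mean square difference of log2 values centred on each gene's mean over the 12 arrays, which is given as a description. For WNT5A these were HAS3 (0.148), AFAP1 (0.187) and PARM1 (0.188), beside an SD of 0.563 for WNT5A over the arrays. For WNT5B (SD 0.581) they were CNN2 (0.217), ARHGEF3 (0.221) and SRGAP1 (0.245), and for WNT2B (SD 0.497) they were SHC4 (0.161), KCNIP4 (0.216) and DDHD1 (0.228). For SFRP2 (SD 1.24) they were LOC512464 (0.370), NRCAM (0.373) and MBOAT2 (0.376). HAS3, a synthase of hyaluronan, had phase differences of -0.97 in the isthmus and -0.16 in the ampulla, beside -1.14 and -0.14 for WNT5A.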

How the data were processed

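Total RNA of the 12 samples (ampulla and isthmus of 6 heifers) was put by the authors on 1 Bovine Gene 1.0 ST array each, unpooled. The deposited log2 values were made by the authors with RMA background correction, quantile normalization and median polish, using GCOS 1.2 and Partek 6.4 per the submitters' processing notes. Because the distributions of the arrays were made alike, differences are relative to all probesets, and the number of arrays limits the precision. Nothing says how many cells gave each RNA. The p-values measure the spread between heifers within the groups and, unless a block by heifer is named, do not pair the segments.

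All 26773 probesets were kept with their deposited log2 values, of which 18457 had 1 symbol in the platform annotation, 688 several and 7628 none. The brighter of the RSPO3 probesets was used. WNT4 and 4 pathway genes (NOTUM, FZD6, CSNK1A1 and CELSR3) were not analysed here.

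The 4 group means were estimated over all 12 arrays in limma (version 3.58.1, R 4.3.3, 8 residual degrees of freedom, empirical Bayes moderation), with Benjamini-Hochberg adjustment across the probesets within each of 5 contrasts. The interaction had no fold minimum. Alternatives were the methods' F-test followed by LSD contrasts, leaving out each heifer with both of its arrays, median centring, a repeated quantile normalization, a filter on dim probesets (kept 20186, with 7 of the 9 genes, without DKK1 and RSPO3), an intensity trend, array weights, the mean of a gene's probesets, heifer as a random or fixed block, and only the groups compared.

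The genes, lists and tests were chosen with earlier results of these data known. From each list, in each comparison, up to 4 called genes with the smallest p were eligible to be named, or up to 2 where none was called. The genes AXIN2, APCDD1, LEF1, CTNNB1 and PORCN, the receptors FZD5, ROR2 and LGR4 and the marker genes were named with their values known. The fit was tested on data simulated from these arrays, in which 200 probesets were changed. A log2 change of 1 was recovered for 75 to 79% of probesets in the pairwise comparisons and for 63% in the interaction, with 4 to 8 false calls. The simulated noise was independent between arrays, so it held no correlation within heifers or from mixtures of cells. Plots were drawn with Python 3.11.15 and matplotlib 3.10.9.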

Additional observations from a re-analysis of the deposited data

How the results depend on the processing

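Of 45 results for the 9 genes over 5 comparisons, none changed sign while called. The ampulla phase comparison, with 0 of the 9 genes called, had 1 under the methods' F-test with LSD contrasts (WNT5B), 1 with dim probesets left out (WNT5B) and 0 to 1 without single heifers. The interaction, with 0 called, had 2 under the LSD contrasts (WNT5A and WNT5B), which adjust only the F-test, and 0 without single heifers. The FP comparison of the segments, with 1 called, had 0 to 1 without single heifers (0 without FP heifer 1 or 2). The isthmus phase comparison had 1 throughout, and the LP comparison of the segments, with 4, had 3 to 4. With heifer as a fixed replicate block the LP comparison had 3, since WNT2B was lost (adjusted p = 0.133), the FP comparison 1 and the interaction 0. The block also ended the calls of WLS in the LP (adjusted p up to 0.207 over alternatives), FZD4 in the FP and the NDP interaction, and changed no other call of the 9 genes. The numbers pair the segments by the labels, but in the FP the pairing did not show (r = -0.05, -0.17 and -0.10), so a value blocked by heifer is uncertain there. The same holds for values without an FP heifer, since the arrays of both segments were left out by that number. With heifer as a random replicate block the estimated correlation was 0.0885 and no call of the 9 genes changed.

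Over all probesets (phase by tissue interaction: all probesets called), the count of 41 became 1831 under the LSD contrasts, 74 with an intensity trend, 19 with the fixed block and 0 to 141 without single heifers. For isthmus vs ampulla, LP: all probesets called, it was 1871 and 1067 without LP heifer 2. For isthmus vs ampulla, FP: all probesets called, it was 629, 1013 under the LSD contrasts and 113 without FP heifer 2. The alternatives for the pathway lists were added after seeing the data. Signals near the lower quartile of the arrays limit what can be said of SFRP1, DKK1 and RSPO3.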
